A study of Mus musculus with 2 samples.

Results

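Calcium channels, calcium pumps, calmodulins and calmodulin-dependent kinases were followed in mouse osteoclast precursors that were driven toward the osteoclast fate by RANKL. The genes were taken by name from the annotated table of normalized array signals, as every array gene whose name begins with CAMK, CALM and a digit, ITPR and a digit, RYR, ATP2A, ATP2B, ATP2C, STIM, ORAI, CACN, TRPV, TRPM, TRPC or TRPML. This gave 78 of 31492 array genes, and all 78 names are current RefSeq symbols. No array gene carries a name that begins with ORAI or TRPML. Bone marrow of C57BL/6 mice, 8 weeks old, was sorted for cells carrying the M-CSF receptor CD115 and little or no CD11b, with no CD3 or CD45R, and cultured for 3 days. One group received M-CSF + RANKL at 30 ng/ml each, and the other received M-CSF alone at 30 ng/ml. Each group is the mean of 3 biological replicates on separate Illumina arrays, and the table gives that mean and its SD, so values of single arrays are not shown here. The labels do not say whether the replicates were separate animals, sorts or cultures, and p-values measure only the spread between them.

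Calcium is the second messenger that connects RANKL and immunoreceptor signals to the transcription factor NFATc1. Phospholipase C makes inositol trisphosphate, its receptors release calcium from the endoplasmic reticulum (ER), STIM proteins sense the emptied store and open ORAI channels, and SERCA pumps refill it. Calmodulin carries the signal to the phosphatase calcineurin, which activates NFAT factors, and to the calmodulin-dependent kinases. In osteoclasts repeated calcium spikes of this kind accompany differentiation, and plasma membrane channels of the TRPV family bring in further calcium.

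A gene counted as detected in a group at a detection p under 0.01. Detection in either group admitted 23 of the 78 genes to the test. Another 50 read under the detection floor in both groups, with signals from 128 to 183 with M-CSF + RANKL and from 122 to 180 with M-CSF, against a median of 145 for undetected genes in both groups. The floor is the lowest reliably detected signal, 196 with M-CSF + RANKL and 198 with M-CSF. The remaining 5, Camk1d, Itpr1, Itpr2, Atp2b2 and Trpm7, read above the floor in at least 1 group although their detection p was 0.01 or more. In a limma moderated test with a threshold of 0.05 on the adjusted p, 5 of the 23 rose, 14 fell and the other 4 did not pass. Among all 11012 genes tested, 57.8% passed, 28.9% as rises and 29.0% as falls. The falls were 60.9% of the tested calcium genes and the rises 21.7%. The median log2 difference was −0.26 over the 23 and −0.00 over all tested genes. A called change of at least 2-fold was found in 3 of the 23 (13.0%), close to the 13.9% of all tested genes. With background subtracted it was 8 of 23 (34.8%), against 25.1% of all tested genes. The 8 include Camk2a, Camk2b, Trpv4, Cacnb2 and Cacna1a, each detected only in the group where it is high. Their other group lies under the floor, where subtraction enlarges a ratio, so nothing is read from this share. Detection in 1 group only applied to 7 of the 23, and 6 of them, all but Atp2a3, were admitted through the group where they are high with the other group under the floor. The 7 were Camk2b, Atp2a3, Trpv4, Cacna1d and Cacna1a with M-CSF alone, and Camk2a and Cacnb2 with M-CSF + RANKL. Of these, Camk2a, Trpv4, Cacna1d and Cacna1a read under the floor in both groups. When a signal above the floor in at least 1 group admitted genes instead, 4 of 24 calcium genes rose and 14 fell. Among all 11973 genes so admitted 29.1% rose and 29.2% fell. Detection in both groups applied to 9270 of all 11012 genes in the main test and to 16 of the 23. Among the 16 detected in both groups, 3 rose and 9 fell, against 27.6% and 28.6% of all genes so detected.

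**Figure D1:**
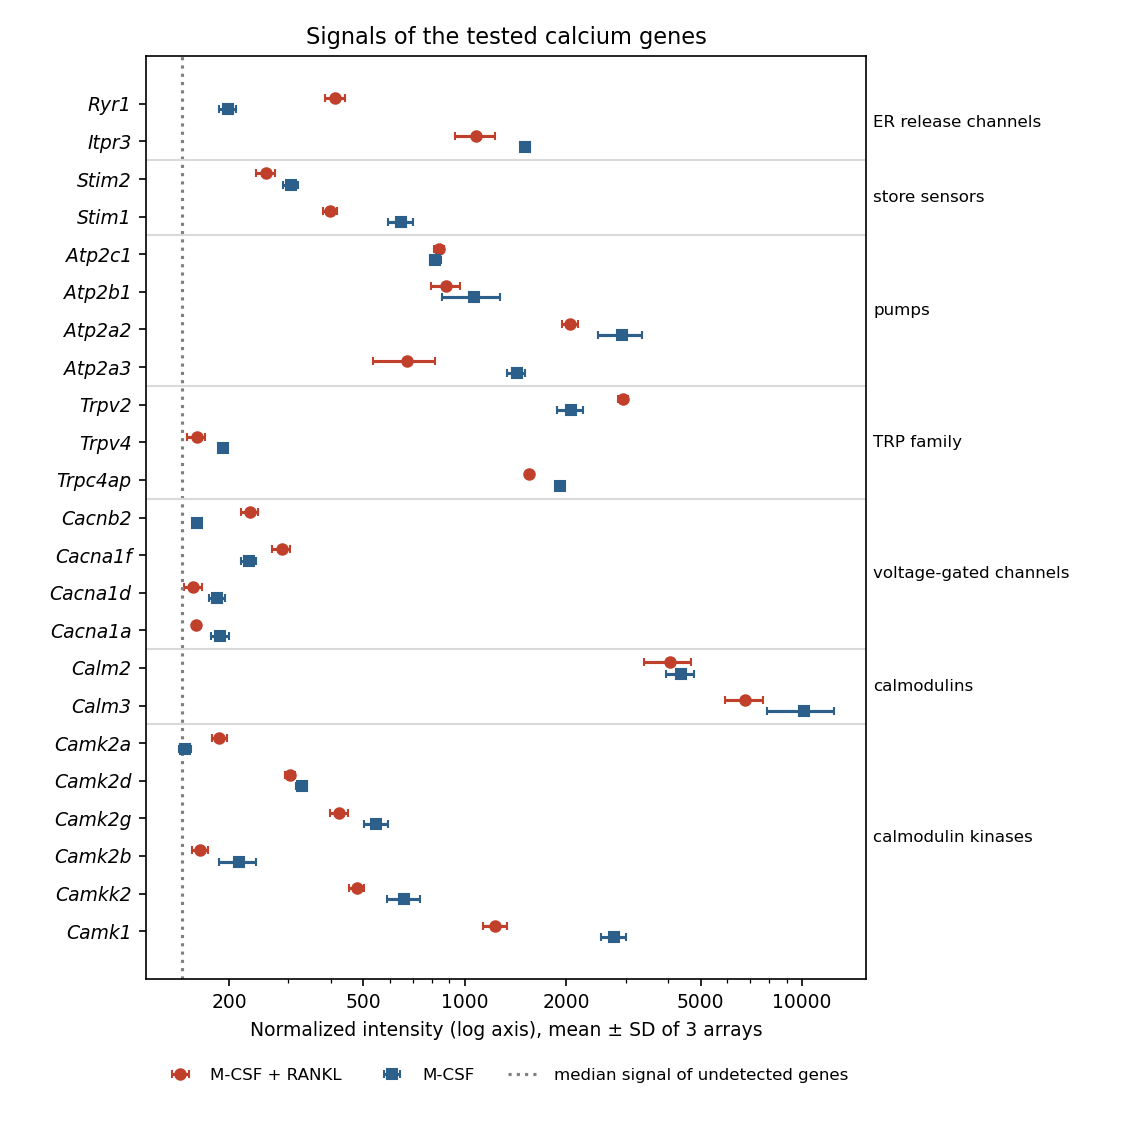
Normalized intensity on a log axis of the 23 tested calcium genes, with circles for M-CSF + RANKL and squares for M-CSF, as mean ± SD of 3 arrays, and a dotted line at the median signal of undetected genes, 145. Most M-CSF + RANKL circles lie left of their M-CSF squares, with those of Ryr1, Trpv2, Cacnb2, Cacna1f and Camk2a to the right, and that of Atp2c1 slightly so with overlapping error bars.

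The cultures were checked against marker genes. With M-CSF + RANKL, 7 of 8 osteoclast markers were detected and their signals summed to 155065, whereas with M-CSF alone 3 were detected and the sum was 1463. All 8 monocyte and macrophage markers were detected in both groups, with sums of 81517 with M-CSF + RANKL and 144775 with M-CSF. Granulocyte markers were detected for 5 of 6 array genes in both groups, and summed to 10541 with M-CSF + RANKL and 14150 with M-CSF. The part of these other cells in the calcium gene differences was not tested. In such bulk RNA, fewer cells of a type and less RNA per cell cannot be told apart. Markers of skeletal and heart muscle, stromal cells, megakaryocytes, and T and NK cells were detected in neither group. The B cell gene Cd79b, 1 of 5 on its list, was detected in both, at 205 ± 21.3 with M-CSF + RANKL and 286 ± 7.64 with M-CSF (adjusted p = 0.00102, limma). Also detected were the erythroid genes Epor, higher with RANKL (adjusted p = 0.023, limma), and Hbb-b1, and the neuronal gene Syp, both of which did not pass. The B cell list summed to 787 with M-CSF + RANKL and 861 with M-CSF, the erythroid list to 696 with M-CSF + RANKL and 650 with M-CSF, and the neuronal list to 491 with M-CSF + RANKL and 518 with M-CSF. Their part was not tested either.

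The ER release channels split in direction. Ryr1, a ryanodine receptor best known as the calcium release channel of skeletal muscle, read 412 ± 28.2 with M-CSF + RANKL and 198 ± 11.3 with M-CSF (mean ± SD, n = 3 each). This 2.08-fold rise (log2 1.06 ± 0.09 SE, adjusted p = 1.31e-06, limma) was the largest among the tested calcium genes, and the ranges of mean ± SD lay far apart. It exceeded 93.7% of all tested genes. After subtraction of the background signal it was 2.34 on the log2 scale, where Cacnb2, not detected with M-CSF, was higher at 2.42. The M-CSF signal of Ryr1 lies at the M-CSF floor of 198, so both sizes of the Ryr1 rise rest on a dim value. None of the 5 muscle markers was detected, with signals from 148 to 170 with M-CSF + RANKL and from 129 to 184 with M-CSF. The voltage sensor of skeletal muscle that couples to Ryr1, Cacna1s, read 129 ± 2.64 and 129 ± 15.2 in M-CSF + RANKL and M-CSF cultures, at background. Ryr2 and Ryr3 also read at background, between 131 and 140.

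The 3 inositol trisphosphate receptors read lower with RANKL. Itpr3 read 1081 ± 148 with M-CSF + RANKL and 1512 ± 43.1 with M-CSF, a 1.40-fold fall (log2 −0.48 ± 0.11 SE, adjusted p = 0.00306, limma, and 0.069 in a test on linear means without moderation). Itpr2, the receptor linked to calcium oscillations in mouse osteoclast precursors, read 332 ± 16.9 with M-CSF + RANKL and 484 ± 28.7 with M-CSF. Itpr1 read 727 ± 107 with M-CSF + RANKL and 994 ± 200 with M-CSF, and here the SD ranges overlapped. Itpr1 and Itpr2 were kept out of that test by their detection p. When genes were instead admitted by a signal above the floor, Itpr1 fell by 0.45 (adjusted p = 0.0219, limma) and Itpr2 fell by 0.54 on the log2 scale (adjusted p = 0.000331, limma). Under that admission rule 29.1% of all genes rose and 29.2% fell.

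Both store sensors fell. Stim1, the main sensor of ER calcium, read 399 ± 19.6 with M-CSF + RANKL and 647 ± 53.8 with M-CSF, a 1.62-fold fall (log2 −0.70 ± 0.10 SE, adjusted p = 8.61e-05, limma). Stim2, its relative that responds to smaller losses of store calcium, read 257 ± 16.7 and 305 ± 15.2 in M-CSF + RANKL and M-CSF cultures, 1.19-fold lower (adjusted p = 0.0365, limma). The Stim1 ranges were well apart, whereas those of Stim2 were close together, and its call was lost with no filter on detection (adjusted p = 0.0803, limma).

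The channels that STIM proteins open are on the array under older names, outside the naming rule, and were found by matching array names to RefSeq synonyms. Orai1, the pore of store-operated entry, read 1956 ± 55.7 with M-CSF + RANKL and 3203 ± 311 with M-CSF, a 1.64-fold fall (log2 −0.71 ± 0.10 SE, adjusted p = 6.75e-05, limma, and 0.0501 on linear means). Orai3 went the other way, at 999 ± 58.5 with M-CSF + RANKL and 811 ± 30.4 with M-CSF, 1.23-fold higher (adjusted p = 0.0186, limma). Orai2 read at background, at 150 ± 4.83 with M-CSF + RANKL and 139 ± 3.80 with M-CSF. Stimate, an ER protein that helps STIM1 reach the plasma membrane, read 506 ± 26.7 with M-CSF + RANKL and 881 ± 74.8 with M-CSF, 1.74-fold lower (adjusted p = 3.36e-05, limma). Stim1, Orai1 and Stimate thus read lower with RANKL and Orai3 higher, with the Orai1 call lost on linear means.

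Promoters are shown for the 2 risers with the most signal change among genes detected in both groups, Ryr1 and Trpv2, and for the sensor and pore that fell, Stim1 and Orai1. Each runs from 250 bases before to 50 after the start site, 5′ to 3′, from RefSeq on GRCm38.p6. Trpv2 has 3 listed starts, of which the first is printed. Capitals mark matches, on either strand, to a loose NF-kB motif, GGG and CC with any 5 bases between them, the 1 motif of 4 searched that matched in these windows.
Ryr1 (chr7:29125102-29125401, minus strand): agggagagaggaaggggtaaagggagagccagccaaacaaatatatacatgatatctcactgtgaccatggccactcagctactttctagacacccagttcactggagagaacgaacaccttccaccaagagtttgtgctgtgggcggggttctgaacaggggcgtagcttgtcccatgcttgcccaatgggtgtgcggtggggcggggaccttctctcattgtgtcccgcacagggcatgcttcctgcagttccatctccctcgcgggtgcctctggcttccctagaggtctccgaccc
Trpv2 (chr11:62574236-62574535, plus strand): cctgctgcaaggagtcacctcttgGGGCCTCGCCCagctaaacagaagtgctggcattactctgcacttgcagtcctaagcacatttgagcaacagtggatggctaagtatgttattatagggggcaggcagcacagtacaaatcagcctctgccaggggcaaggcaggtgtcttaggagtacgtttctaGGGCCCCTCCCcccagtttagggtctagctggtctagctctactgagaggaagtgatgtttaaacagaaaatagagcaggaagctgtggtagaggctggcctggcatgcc
Stim1 (chr7:102267569-102267868, plus strand): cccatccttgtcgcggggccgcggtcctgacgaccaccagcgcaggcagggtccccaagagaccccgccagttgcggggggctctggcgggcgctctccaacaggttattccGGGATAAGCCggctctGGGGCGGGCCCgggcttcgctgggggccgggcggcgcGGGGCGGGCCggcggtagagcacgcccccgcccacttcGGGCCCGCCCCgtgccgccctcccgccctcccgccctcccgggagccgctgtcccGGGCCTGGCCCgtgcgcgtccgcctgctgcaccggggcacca
Orai1 (chr5:123014824-123015123, plus strand): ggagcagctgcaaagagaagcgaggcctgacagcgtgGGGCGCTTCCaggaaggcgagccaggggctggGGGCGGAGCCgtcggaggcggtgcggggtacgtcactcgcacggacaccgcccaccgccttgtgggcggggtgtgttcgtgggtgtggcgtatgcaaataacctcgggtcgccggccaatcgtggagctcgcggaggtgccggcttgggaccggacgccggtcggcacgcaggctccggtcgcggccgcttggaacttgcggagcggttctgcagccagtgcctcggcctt

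Ryr1 held 0 such matches, Trpv2 4, Stim1 8 and Orai1 2, where matches may overlap each other, and 50.8% of all 32851 RefSeq promoters of this length hold at least 1. The other motifs were GGAAA, the core of NFAT sites (61.3% of all promoters), TGANTCA for AP-1 (7.81%) and CACGTG, the E-box bound by MITF (7.15%). Of the 23 tested genes 18 have a promoter in the table, among them 4 that rose and 11 that fell. At the first listed start, GGAAA was present in 2 of those 4 and 3 of those 11, and TGANTCA in 0 of either.

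Calcium pumps fell or did not pass. Atp2a3, a SERCA pump of blood cells, read 674 ± 140 with M-CSF + RANKL and 1423 ± 89.8 with M-CSF, a 2.11-fold fall (log2 −1.08 ± 0.14 SE, adjusted p = 3.70e-05, limma). Its detection p with M-CSF + RANKL was 0.0365, although that signal lies far above the floor. Atp2a2, the SERCA pump present in most cells, read 2052 ± 113 with M-CSF + RANKL and 2919 ± 433 with M-CSF, 1.42-fold lower (log2 −0.51 ± 0.12 SE, adjusted p = 0.00263, limma, and 0.121 on linear means). Both of these ER pumps fell, and their SD ranges did not overlap between groups.

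Pumps outside the ER showed no passing difference. Atp2b1, a pump that expels calcium across the plasma membrane, read 882 ± 88.1 with M-CSF + RANKL and 1064 ± 207 with M-CSF, and the 95% interval of the log2 difference ran from −0.58 to 0.04. Atp2c1, the calcium and manganese pump of the Golgi, read 838 ± 30.6 and 818 ± 32.1 in M-CSF + RANKL and M-CSF cultures, with an interval from −0.17 to 0.24. Among the other plasma membrane pumps, Atp2b2 read 185 ± 9.77 with M-CSF + RANKL and 216 ± 24.2 with M-CSF without being detected. Atp2b3 and Atp2b4, and with them the SERCA pump Atp2a1 of the ER, were under the floor, between 145 and 167.

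**Figure D2:**
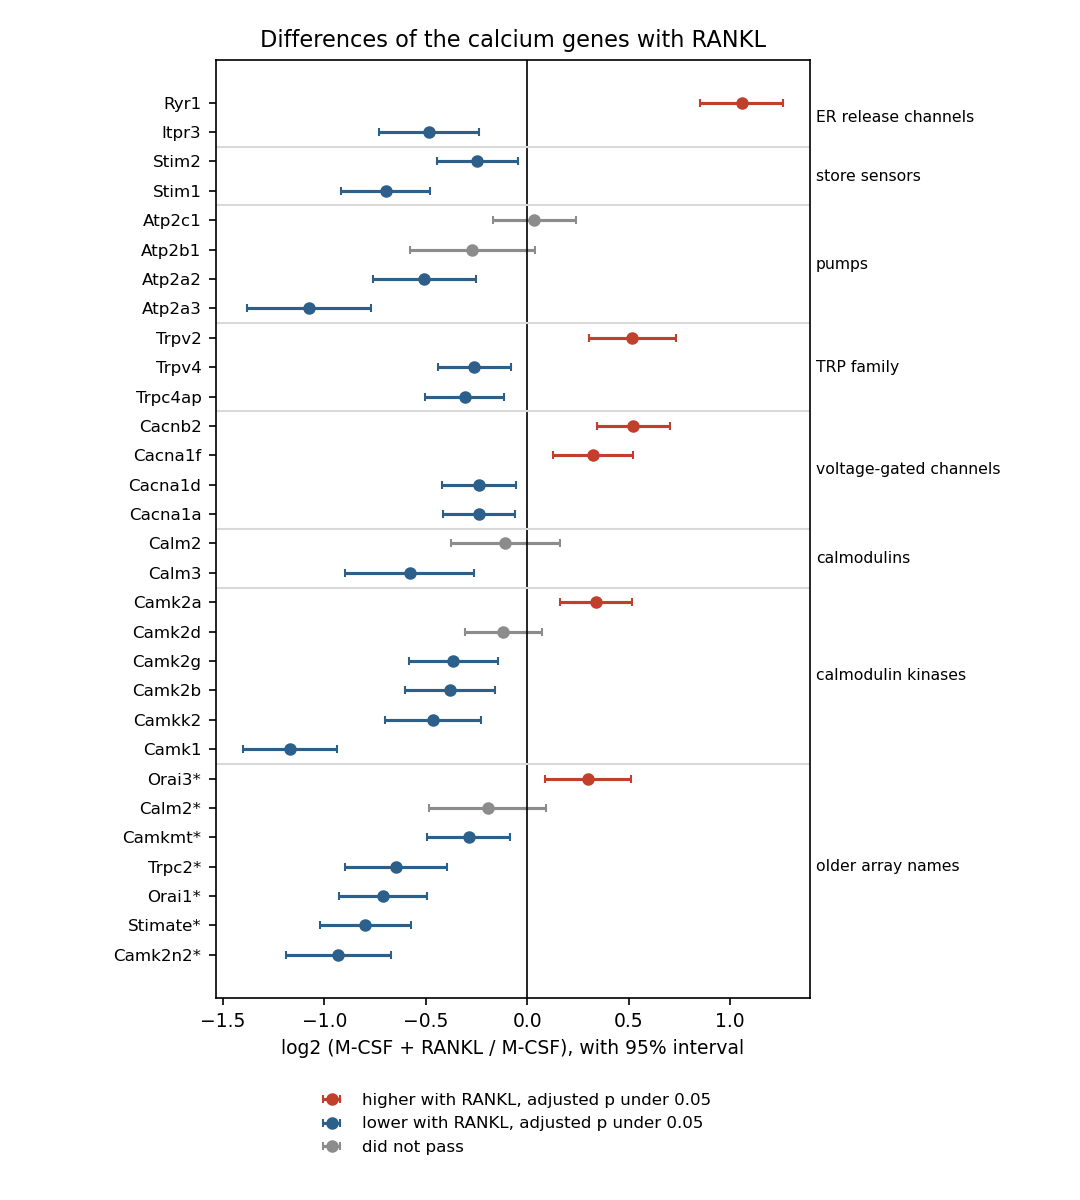
log2 difference, M-CSF + RANKL over M-CSF, with its 95% interval, for the 23 tested calcium genes by family and for 7 tested array genes with older names, marked by an asterisk. Ryr1 lies farthest to the right at 1.06 and Camk1 farthest to the left at −1.17.

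Of 22 TRP family array genes, 3 were tested. Trpv2, a cation channel of macrophages and other cells, read 2946 ± 93.5 with M-CSF + RANKL and 2058 ± 183 with M-CSF, a 1.43-fold rise (log2 0.52 ± 0.10 SE, adjusted p = 0.000707, limma). Its signals were far above the floor in both groups, and its group ranges lay apart. Trpv4, a channel that sustains calcium entry in mouse osteoclasts, read 160 ± 9.89 with M-CSF + RANKL and 192 ± 5.65 with M-CSF (log2 −0.26 ± 0.08 SE, adjusted p = 0.0168, limma). Both Trpv4 signals lie under the floor, so no fold is given. Trpc4ap encodes a protein that binds TRPC4 and is not itself a channel. It read 1549 ± 4.27 with M-CSF + RANKL and 1917 ± 41.1 with M-CSF, 1.24-fold lower (adjusted p = 0.0109, limma). Trpm7, a channel fused to a kinase, read 212 ± 3.73 and 231 ± 29.6 in M-CSF + RANKL and M-CSF cultures without being detected. The other 18, Trpv5 among them, a calcium channel described in osteoclasts, read under the floor, from 128 to 166 with M-CSF + RANKL and from 128 to 174 with M-CSF.

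Voltage-gated calcium channel subunits were mostly at background. Of 24 array genes, 4 were tested and the other 20 read from 128 to 171 with M-CSF + RANKL and from 129 to 165 with M-CSF. Cacnb2, an accessory beta subunit, read 230 ± 13.1 with M-CSF + RANKL and 160 ± 4.28 with M-CSF, where it was not detected. Its rise was at least 1.17-fold from the floor, and 0.52 ± 0.08 SE on the log2 scale of measured signals (adjusted p = 0.000177, limma). Cacna1f, a pore subunit best known from the retina, was detected in both groups at 286 ± 17.7 with M-CSF + RANKL and 229 ± 11.3 with M-CSF, 1.25-fold higher (adjusted p = 0.00842, limma). The pore subunits Cacna1a and Cacna1d were detected with M-CSF alone and fell. Cacna1a read 160 ± 2.04 with M-CSF + RANKL and 189 ± 12.0 with M-CSF (adjusted p = 0.0244, limma), and Cacna1d read 157 ± 9.22 with M-CSF + RANKL and 184 ± 9.67 with M-CSF (adjusted p = 0.0299, limma). All 4 signals of these subunits lie under the floor, and both calls were lost with no filter on detection (adjusted p = 0.0522 for Cacna1a and 0.0617 for Cacna1d, limma).

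Calmodulin, the calcium sensor itself, is encoded by several genes for the same protein in mouse. Calm3 read 6783 ± 891 with M-CSF + RANKL and 10140 ± 2252 with M-CSF, a 1.49-fold fall (log2 −0.58 ± 0.15 SE, adjusted p = 0.00492, limma). Its SDs were large, the ranges were just apart, and the call was lost without moderation of the variance (adjusted p = 0.0944). Calm2 read 4045 ± 648 with M-CSF + RANKL and 4362 ± 426 with M-CSF, with an interval of the log2 difference from −0.38 to 0.16. The calmodulin-like genes Calm4 and Calm5 read at background.

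Of the 6 tested calmodulin kinases 4 fell, 1 rose and 1 did not pass. Camk2a and Camk2b were each admitted through the group where they are high, and of the 4 kinases detected in both groups 3 fell, 0 rose and 1 did not pass, beside 28.6% falls and 27.6% rises among all genes so detected. Camk1, a kinase of the cascade that Camkk2 activates, read 1231 ± 102 with M-CSF + RANKL and 2771 ± 235 with M-CSF. This 2.25-fold fall (log2 −1.17 ± 0.11 SE, adjusted p = 1.65e-06, limma) was the largest among the tested calcium genes, and 5.32% of all tested genes had a lower log2 difference. With background subtracted the log2 difference of Camk1 was −1.27. Lower then were Camk2b at −1.84, Trpv4 at −1.55, Cacna1a at −1.44 and Cacna1d at −1.30, all under the floor with M-CSF + RANKL. Camkk2, the upstream kinase, read 479 ± 25.0 with M-CSF + RANKL and 661 ± 74.2 with M-CSF, 1.38-fold lower (adjusted p = 0.00288, limma, and 0.0848 on linear means). Camk1d, a close relative of Camk1, read 222 ± 34.3 with M-CSF + RANKL and 503 ± 78.5 with M-CSF. It was not detected in either group and differed by −1.18 on the log2 scale when admitted by signal (adjusted p = 1.15e-05, limma).

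CaM kinase II is a holoenzyme of several chains, of which Camk2g and Camk2d were detected in both groups. Camk2g read 424 ± 25.2 with M-CSF + RANKL and 546 ± 44.8 with M-CSF, 1.29-fold lower (adjusted p = 0.00863, limma, and 0.061 on linear means). Camk2b read 164 ± 8.62 with M-CSF + RANKL and 214 ± 26.8 with M-CSF, a fall of at least 1.09-fold (adjusted p = 0.00654, limma), and its call was lost without moderation (adjusted p = 0.056). Camk2d did not pass, at 303 ± 11.0 with M-CSF + RANKL and 329 ± 11.9 with M-CSF (interval of the log2 difference from −0.31 to 0.07). Camk2a, the chain best known from neurons, read 187 ± 9.56 with M-CSF + RANKL and 148 ± 5.88 with M-CSF, higher by 0.34 on the log2 scale (adjusted p = 0.00333, limma). Both Camk2a signals lie under the floor. Camk4, the kinase that acts on CREB in osteoclast precursors of the mouse, read at background, at 133 ± 8.37 with M-CSF + RANKL and 151 ± 8.29 with M-CSF. The inhibitor of CaM kinase II Camk2n2, listed under an older array name, read 392 ± 42.2 with M-CSF + RANKL and 747 ± 86.0 with M-CSF, 1.91-fold lower (adjusted p = 3.04e-05, limma). Its relative Camk2n1 was under the floor.

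**Figure D3:**
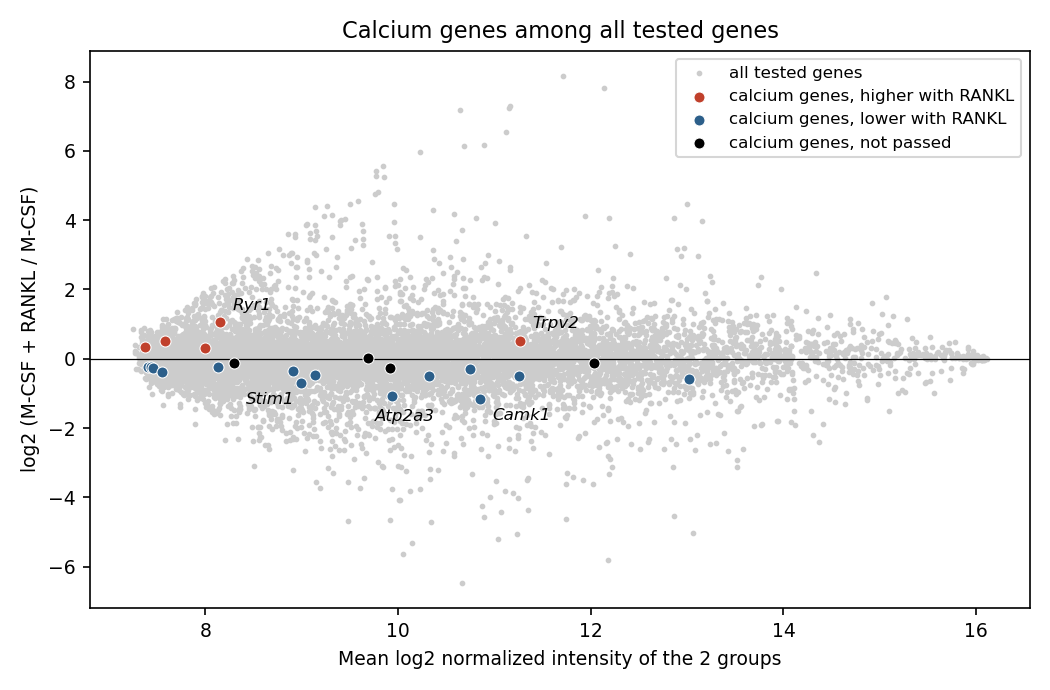
log2 difference, M-CSF + RANKL over M-CSF, against the mean log2 normalized intensity of both groups for all 11012 tested genes (grey) and the 23 calcium genes (coloured by call). The calcium genes lie between −1.17 and 1.06, whereas the largest difference of any gene is 8.16.

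The counts depended on the size of the error. With both SDs doubled 2 rises, Ryr1 and Cacnb2, and 3 falls, Camk1, Atp2a3 and Stim1, still passed. Among all 11012 genes tested 3054 then passed. With a test on the linear means without moderation, 5 rises and 5 falls passed in place of 5 and 14, beside 3868 of all 11012 genes.

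Partner genes of the pathway came from a list of 80, of which 78 are on the array and 47 were tested. Rises numbered 15 (31.9%) and falls 24 (51.1%), beside 28.9% and 29.0% of all tested genes, and the median log2 difference of the 47 was −0.35. Of the 41 partners detected in both groups 12 rose and 22 fell, beside 27.6% and 28.6% of all genes so detected. The groups hold 3 to 8 tested genes each, and nothing is read from their counts alone. In the calcineurin and NFAT group 4 of 8 rose and 2 fell. The calcineurin inhibitor Rcan1 and the factor Nfatc1 had the largest rises of the whole list, 7.70-fold and 5.05-fold. Rcan1 read 4130 ± 521 with M-CSF + RANKL and 536 ± 41.0 with M-CSF (adjusted p = 1.16e-09, limma). Nfatc1, the master transcription factor of osteoclasts, read 2936 ± 195 with M-CSF + RANKL and 581 ± 48.0 with M-CSF (adjusted p = 3.71e-09, limma). Ppp3cb, a catalytic chain of calcineurin chosen after its values were seen, read 4946 ± 303 with M-CSF + RANKL and 7640 ± 535 with M-CSF, 1.54-fold lower (adjusted p = 7.80e-05, limma). The catalytic chain Ppp3cc read 462 ± 20.3 with M-CSF + RANKL and 618 ± 19.7 with M-CSF, 1.34-fold lower (adjusted p = 0.00212, limma). The catalytic chain Ppp3ca did not pass, at 1405 ± 59.6 with M-CSF + RANKL and 1629 ± 96.1 with M-CSF (adjusted p = 0.0762, limma). Phospholipase C and inositol phosphate genes had 5 rises and 2 falls among 8, of which Plcb4 and Plcd3 were admitted through RANKL, where they are higher. Itpkb, which fell, and Plcd1, which did not pass, were admitted through M-CSF alone, where they are higher. Among the 4 detected in both groups 3 rose and 1 fell. Plcb2, a phospholipase C activated by G proteins, read 954 ± 67.2 with M-CSF + RANKL and 343 ± 20.01 with M-CSF, 2.78-fold higher (adjusted p = 1.35e-07, limma). Plcg2, the phospholipase C downstream of immunoreceptors, went the other way, at 6101 ± 298 with M-CSF + RANKL and 10508 ± 824 with M-CSF, 1.72-fold lower (adjusted p = 9.07e-06, limma).

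Of 8 mitochondrial genes 3 fell, 2 rose and 3 did not pass. This count and those of the groups below stand beside 28.9% rises and 29.0% falls among all tested genes. The lowest difference of the list was that of Slc8b1, the mitochondrial exchanger that lets calcium out against sodium, at 1369 ± 111 with M-CSF + RANKL and 5975 ± 513 with M-CSF, 4.37-fold lower (adjusted p = 7.46e-09, limma). The uniporter pore Mcu itself did not pass, at 319 ± 43.4 with M-CSF + RANKL and 367 ± 29.2 with M-CSF, and was named after its values were seen. Of 8 lysosomal and other cation channels 7 fell and 1 rose, and of 5 ER and Golgi binding proteins 3 fell and 1 rose. Of 3 store-operated entry regulators 2 fell, among them Stimate, given above. Calcium-dependent kinases and targets had 5 falls and 2 rises among 7, and 4 falls and 2 rises among the 6 detected in both groups. The factors Mef2c and Mef2a, whose activity calmodulin kinases raise, fell 3.81-fold and 3.01-fold. Mef2c read 250 ± 26.0 with M-CSF + RANKL and 955 ± 264 with M-CSF (adjusted p = 1.30e-06, limma), a call that was lost in the test on linear means (adjusted p = 0.0888). Mef2c was admitted through M-CSF alone, the group where it is high.

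**Figure D4:**
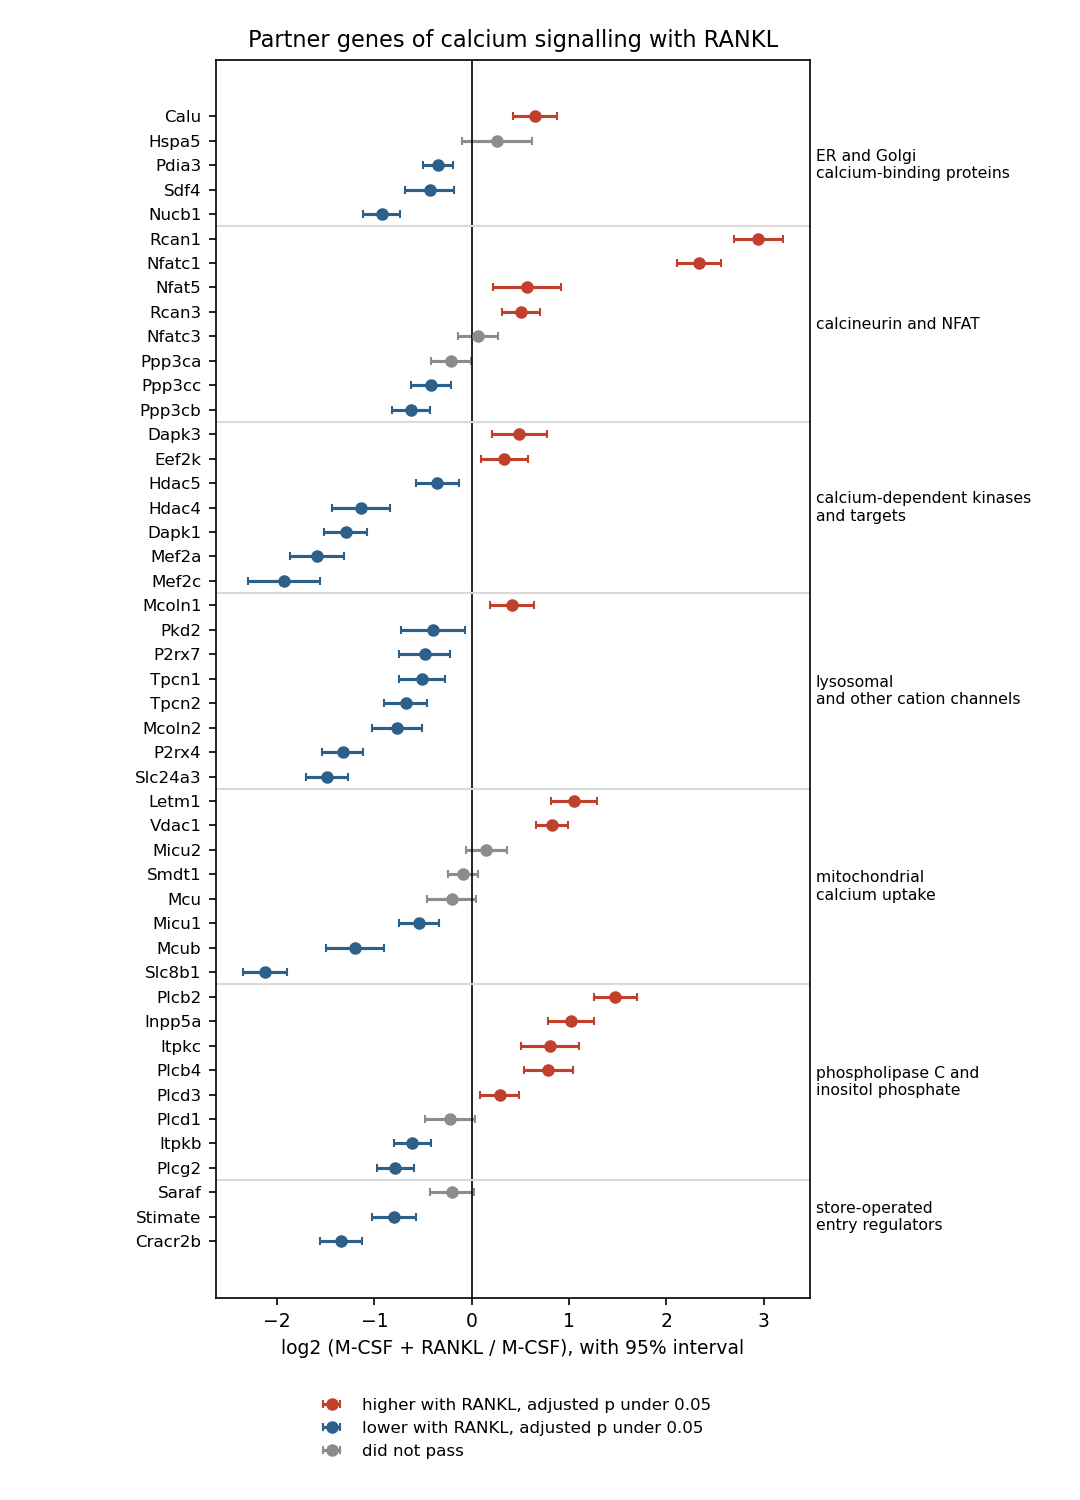
log2 difference, M-CSF + RANKL over M-CSF, with its 95% interval, for the 47 tested partner genes by group. Rcan1 and Nfatc1 lie farthest to the right at 2.95 and 2.34, and Slc8b1 farthest to the left at −2.13.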

How the data were processed

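Per the labels, a group is the mean of 3 biological replicates, each on its own Illumina array. What the authors deposited per array gene is a normalized, linear intensity for each group with the SD between arrays. A detection p-value per group was also deposited. The deposited ratio equals M-CSF + RANKL over M-CSF in all 31492 array genes, although its header names the reverse, and was not used. Sources used here do not give the normalization, software, array version or build.

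Effects are log2 ratios of group means. Variances came from the SDs by the delta method, were pooled on 4 degrees of freedom and were moderated by limma 3.58.1 in R 4.3.3, using squeezeVar with a trend on intensity and 7.49 prior degrees of freedom. Tests were two-sided, with Benjamini-Hochberg adjustment over 11012 genes detected in at least 1 group, and intervals cover 95%. A fold is a ratio of means, or the brighter mean over the floor where the other lay under it, written "at least". The floor uses genes whose detection p lies on equal steps, since other detection p-values did not follow the signal. The test was checked on simulated data with 50 genes changed at each fold. It found 4 of them at 1.25-fold, 35 at 1.5-fold, 49 at 2-fold and 50 at 4-fold. Of its 146 calls 8 were false. Far fewer genes changed there than were called in the data, so these shares do not carry over directly. A gene that did not pass is not shown to be unchanged. Array names were matched to RefSeq symbols and synonyms of GRCm38.p6. A partner or marker with several array genes was represented by the entry with the highest signal, averaged over both groups.

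All tested members were to be named, with the 3 highest and 3 lowest called partners, Nfatc1, Rcan1 and Plcg2. Members, lists and rules were chosen with earlier results of these data known. Alternatives were other filters, background subtraction, centring, doubled SDs, other moderation and linear means.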

Additional observations from a re-analysis of the deposited data

How the results depend on the processing

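The 5 rises and 14 falls of calcium genes, the 6369 calls among all genes and the 39 calls among partners were recomputed under 10 alternatives, 1 of them added after seeing the data. With both SDs doubled there were 2 rises, 3 falls and 3054 calls in all. With the test on linear means there were 5 rises, 5 falls, 3868 calls in all and 25 among partners. With detection required in both groups, the added setting, there were 3 rises and 9 falls, beside 5186 calls among all 9270 genes so detected. The calcium genes detected in 1 group only drop out here. Each of them had been called and admitted through the group where it is high. Under the other alternatives each count stayed within 1.5 times. Of 356 values of single named genes under these alternatives, 320 kept direction and side of the threshold, 36 kept direction and no longer passed, and 0 reversed. The log2 difference itself changes only with background subtraction and centring. Under the other settings a reversal could not occur, so its absence there says nothing. The 3 arrays per group and the background left in the signal limit what can be seen in dim genes. No replicate could be left out, since means and SDs were used. No paired analysis was possible because the columns are group means and carry no replicate numbers.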

Other observations

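Array genes with an older name number 23, of which 14 repeat a gene of the naming rule and 9 are the only entry of theirs. Of the 14, 2 were tested, Calm2 and Trpc2, and 12 were not. Further array genes of the same symbol did not always read alike. Trpc2 read 164 ± 15.96 with M-CSF + RANKL and 171 ± 34.6 with M-CSF under its own name, whereas its older entry read 274 ± 35.1 and 430 ± 38.3, 1.57-fold lower with RANKL (adjusted p = 0.000426, limma). That older entry was detected only with M-CSF, the group where it is high. The further entry of Atp2a2 read at background, at 129 ± 16.1 with M-CSF + RANKL and 140 ± 4.61 with M-CSF. Calm2 did not pass under either name, and its older entry read 437 ± 23.6 with M-CSF + RANKL and 501 ± 96.9 with M-CSF. Camkmt, which methylates calmodulin, read 170 ± 14.2 with M-CSF + RANKL and 207 ± 14.9 with M-CSF, a fall of at least 1.05-fold (adjusted p = 0.0195, limma), a call that was lost without moderation (adjusted p = 0.0671) and on linear means (adjusted p = 0.0775). Camkmt too was detected only with M-CSF, where it is high. These entries were singled out after their values were seen.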
